A study of Homo sapiens with 18 samples.

Results

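Regulation of sterols was examined through 8 genes of the RNA-seq count table, MYLIP, ABCA1, NR1H2, SREBF1, SREBF2, INSIG1, HMGCS1 and SQLE, which were taken by gene name from the 23622 genes listed. The RNA came from A2780 cells, an established human ovarian cancer line that is sensitive to cisplatin, and from its resistant derivative A2780cis (Acis), which is kept resistant by 1 µM cisplatin every 3 passages. Each line was left untreated (control) or was exposed to 200 µM cisplatin for 3 h, with 3 libraries for each of the 4 groups, and accessible chromatin was mapped by ATAC-seq under the same 4 conditions. All groups derive from the same parental line, so the Acis groups represent 1 resistant derivative, and all cisplatin values describe a short exposure. All 8 genes passed the filter on low counts and were tested.

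Cells sense sterols through opposing circuits. When membrane cholesterol is low, the SREBP transcription factors, encoded by SREBF1 and SREBF2, are carried out of the endoplasmic reticulum, cut by proteases and sent to the nucleus, where they switch on enzymes of cholesterol synthesis such as HMGCS1 and SQLE as well as lipoprotein uptake. INSIG1 retains the SREBPs in the endoplasmic reticulum when sterols are abundant and is itself an SREBP target. When oxysterols accumulate, the liver X receptors (LXR), including LXR-beta encoded by NR1H2, switch on ABCA1, the transporter that exports cholesterol to lipoproteins, and MYLIP, an E3 ubiquitin ligase that marks lipoprotein receptors for degradation.

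The sequences just before the annotated starts of 5 of the genes are shown because the accessibility data below refer to windows around these starts. Not every peak described there covers the printed bases. RefSeq promoters (GRCh38.p14) were available for 7 of the 8 genes, SQLE being the exception. Each line gives the 250 bases before the start, 5′ to 3′ on the strand of the gene. Capitals mark matches to TCACNCCAC, a form of the sterol regulatory element bound by SREBPs, to CCAAT, the box bound by NF-Y (ATTGG when it lies on the other strand), and to the E-box CACGTG. Both strands were searched, and no matches overlapped. The promoters lie at chr6:16128836-16129085 (+, MYLIP), chr9:104928156-104928405 (-, ABCA1), chr7:155297628-155297877 (+, INSIG1), chr22:41832855-41833104 (+, SREBF2) and chr5:43313413-43313662 (-, HMGCS1).
MYLIP: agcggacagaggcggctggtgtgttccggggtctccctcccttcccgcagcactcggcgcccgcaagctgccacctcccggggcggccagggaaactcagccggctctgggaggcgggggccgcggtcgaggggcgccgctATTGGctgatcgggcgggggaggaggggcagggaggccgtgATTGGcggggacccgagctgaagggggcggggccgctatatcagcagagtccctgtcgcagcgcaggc
ABCA1: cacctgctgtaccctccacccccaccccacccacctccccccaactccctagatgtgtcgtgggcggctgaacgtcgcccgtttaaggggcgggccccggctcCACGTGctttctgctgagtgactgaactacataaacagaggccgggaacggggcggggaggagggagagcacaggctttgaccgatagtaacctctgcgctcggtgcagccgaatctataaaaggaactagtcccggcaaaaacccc
INSIG1: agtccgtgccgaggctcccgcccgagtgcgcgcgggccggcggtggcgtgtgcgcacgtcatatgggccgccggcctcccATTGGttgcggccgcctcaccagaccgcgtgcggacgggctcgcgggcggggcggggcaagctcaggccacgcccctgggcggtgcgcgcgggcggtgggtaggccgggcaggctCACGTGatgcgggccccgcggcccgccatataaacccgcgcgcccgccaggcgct
SREBF2: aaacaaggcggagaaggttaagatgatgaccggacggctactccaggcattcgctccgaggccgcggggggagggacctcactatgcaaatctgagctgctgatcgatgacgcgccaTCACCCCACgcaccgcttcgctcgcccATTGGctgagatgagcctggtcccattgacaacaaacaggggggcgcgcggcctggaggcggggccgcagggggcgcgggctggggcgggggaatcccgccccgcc
HMGCS1: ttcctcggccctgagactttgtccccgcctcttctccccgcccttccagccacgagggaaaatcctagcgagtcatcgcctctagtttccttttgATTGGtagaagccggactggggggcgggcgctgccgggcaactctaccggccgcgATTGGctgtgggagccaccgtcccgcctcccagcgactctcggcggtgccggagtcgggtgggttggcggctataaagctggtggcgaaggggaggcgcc

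The match to TCACNCCAC in SREBF2 spans bases -133 to -125 from the start, and 1.13% of the 35116 RefSeq promoters of 300 bases (250 before and 50 after the start) hold this motif. MYLIP has CCAAT boxes at -109 to -105 and at -68 to -64, HMGCS1 has them at -155 to -151 and at -100 to -96, INSIG1 has 1 at -170 to -166 and SREBF2 has 1 at -106 to -102, a motif held by 34.6% of all promoters. INSIG1 and ABCA1 have the E-box, at -55 to -50 and at -147 to -142, as do 7.26% of promoters. The promoters of SREBF1 and NR1H2 held none of these motifs, nor did a second RefSeq promoter of HMGCS1 (chr5:43313182-43313431, not printed). No member with a promoter available held TGANTCA, the AP-1 motif, which is found in 7.71% of promoters. SQLE could not be searched for any of these motifs. These are matches of letters and say nothing of occupancy.

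Library totals ranged from 4130644 to 5072216 counts. Levels are given as normalized counts, which are counts scaled by TMM factors to the mean library, and differences were tested by edgeR's quasi-likelihood test with Benjamini-Hochberg adjustment over the 15760 genes tested, a gene being called when its adjusted p was under 0.05. The comparisons share groups, so they are not independent of each other. Scaling matters for small changes, because the median gene changed after cisplatin in A2780 by -0.01 on the log2 scale with TMM and by 0.10 with total counts. With total counts the genes called in A2780 became 5302 higher and 3060 lower, in place of 3347 higher and 4451 lower. In Acis they became 2346 higher and 1411 lower in place of 1474 and 1962, and for the difference between the lines 1463 and 1572 in place of 2113 and 863. Replicates were labelled as separate samples but grew as parallel cultures, and 6 of the 12 pairs of replicates differed by less than counting noise, so the p-values may measure mainly technical spread. Of the markers checked, the epithelial list (3 of 5 in the table, without KRT19 and CDH1) summed to 34.6 to 63.8 normalized counts in A2780 and 135 to 158 in Acis. KRT18 alone carried that difference (means of 25.5 in A2780 control and 143 in Acis control libraries), while KRT8 (15.6 and 4.05) and EPCAM (3.55 and 0.734) were at lower levels in Acis control. The mesenchymal list summed to 2586 to 2746 in A2780 control and 2042 to 2060 in Acis control, with means of 631 and 68.3 for CDH2 and of 2007 and 1979 for VIM. Of 5 ovarian or Müllerian markers only PAX2 was in the table, at 743 to 1084 in A2780 libraries and at 0 to 0.960 in Acis libraries, whereas 4 fibroblast markers, collagens among them, summed to 1236 to 1747 in A2780 and 11.7 to 27.7 in Acis. A lower level in bulk RNA cannot be divided into fewer expressing cells and less RNA per cell, and the part of these line differences in the results was not tested.

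MYLIP rose after cisplatin in both lines and was far higher in Acis than in A2780. MYLIP (ENSG00000007944, chr6:16129086-16148248, plus strand, GRCh38) had 1.87, 4.81 and 3.20 normalized counts in the A2780 control libraries, from only 2, 5 and 3 counts. After cisplatin the A2780 libraries held 22.5, 25.2 and 20.6, the Acis control libraries 88.1, 106 and 88.9, and the Acis cisplatin libraries 171, 183 and 210. The groups did not overlap, and they ranked A2780 control, A2780 cisplatin, Acis control and Acis cisplatin from lowest to highest. In A2780 the rise was 6.73-fold (log2 2.75, SE 0.37, adjusted p = 6.40e-07 by edgeR), and in Acis it was 1.98-fold (log2 0.99, SE 0.10, adjusted p = 2.57e-08 by edgeR). The log2 change in Acis minus that in A2780 was -1.76 (SE 0.41, adjusted p = 0.00293 by edgeR's interaction test), although in normalized counts the mean increased from 94.5 ± 10.4 to 188 ± 20.1 (SD, n = 3) in Acis and from 3.29 ± 1.47 to 22.8 ± 2.28 (SD, n = 3) in A2780. Acis exceeded A2780 by 27.8-fold without treatment (log2 4.80, SE 0.26, adjusted p = 2.79e-15 by edgeR) and by 8.21-fold after cisplatin (log2 3.04, SE 0.14, adjusted p = 4.69e-17 by edgeR). MYLIP was selected by the study from these same libraries for its rise in A2780 and its higher level in Acis, so these directions are not independent evidence. The paper separately reports a rise of MYLIP after cisplatin by real-time PCR in other cell lines, which was not examined here.

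ABCA1 showed the reverse order. ABCA1 (ENSG00000165029, chr9:104781006-104928155, minus strand) had 327, 338 and 329 normalized counts in A2780 control libraries, 171, 175 and 170 after cisplatin, 8.49, 6.39 and 13.7 in Acis control libraries, and 5.76, 5.91 and 7.86 in Acis cisplatin libraries. Only the Acis groups overlapped. Its level fell by 0.95 on the log2 scale after cisplatin in A2780 (SE 0.07, adjusted p = 3.81e-12 by edgeR). In Acis the log2 change was -0.53 (95% interval -1.23 to 0.17, adjusted p = 0.422 by edgeR), from 26 counts in the control and 20 in the cisplatin libraries in all, so a fall like that in A2780 could not be told from none at this depth. The difference between the lines in this response was 0.42 (SE 0.38, adjusted p = 0.578 by edgeR). Without treatment ABCA1 was 34.7-fold lower in Acis than in A2780 (log2 -5.12, SE 0.13, adjusted p = 1.33e-22 by edgeR), and after cisplatin it was 26.0-fold lower (log2 -4.70, SE 0.17, adjusted p = 1.90e-19 by edgeR). ABCA1 is 147 kb long, and the 1605 tested genes of 100 to 200 kb had a median log2 change of -0.38 after cisplatin in A2780, against 0.09 for the 3816 genes of 10 to 30 kb, the class of the 19.2 kb MYLIP gene. Among genes of its own length class, ABCA1 stood at percentile 3.05 and MYLIP at percentile 99.8 in that comparison. The part of gene length in these values was not tested.

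**Figure D1:**
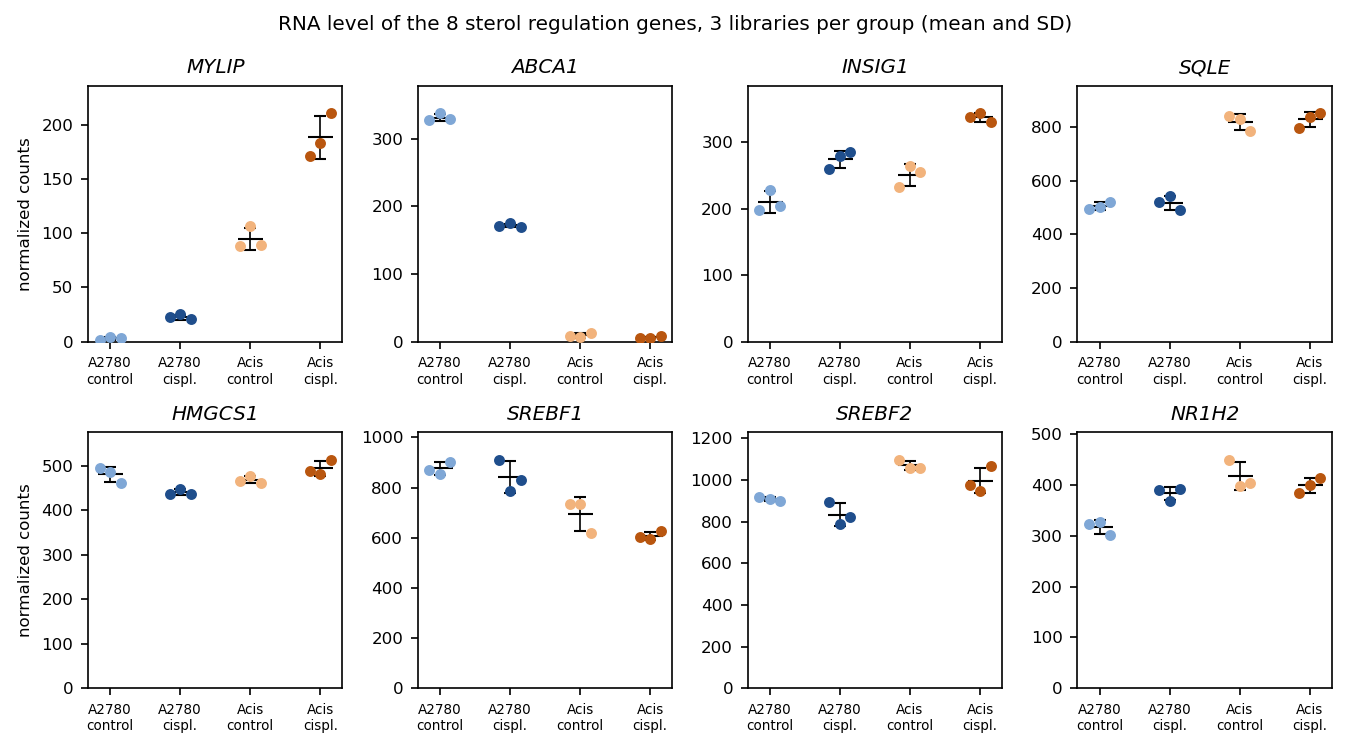
Normalized counts (y axis, from 0, scaled for each gene) of the 8 genes in each library, by group on the x axis, where points are libraries, long dashes are means and error bars are SD over 3 libraries. MYLIP climbs from below 5 in A2780 control to over 170 in Acis cisplatin libraries, ABCA1 lies below 14 in all Acis libraries, and SQLE separates the lines but not the treatments.

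NR1H2, which encodes the LXR present in most tissues, changed with cisplatin in A2780. NR1H2 (ENSG00000131408, chr19:50329653-50383388, plus strand) had 323, 328 and 302 normalized counts in A2780 control libraries and 389, 368 and 392 after cisplatin, without overlap. The Acis control libraries held 449, 398 and 403 and the Acis cisplatin libraries 384, 400 and 414, which overlapped. It rose in A2780 by 0.27 on the log2 scale (SE 0.06, adjusted p = 5.02e-04 by edgeR), whereas the log2 change in Acis was -0.06 (95% interval -0.18 to 0.05, adjusted p = 0.497 by edgeR). The responses of the lines differed by -0.33 (SE 0.08, adjusted p = 0.00514 by edgeR). NR1H2 was higher in Acis without treatment (log2 0.39, SE 0.06, adjusted p = 2.50e-06 by edgeR), and after cisplatin the log2 difference was 0.06 (95% interval -0.05 to 0.17, adjusted p = 0.392 by edgeR).

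The SREBP genes differed between the lines in opposite directions. SREBF1 (ENSG00000072310, chr17:17810399-17837002, minus strand), whose SREBP-1 products act mainly on fatty acid genes, had 872, 855 and 903 normalized counts in A2780 control, 911, 785 and 832 in treated A2780, 734, 736 and 618 in Acis control and 602, 594 and 627 in treated Acis libraries. Every A2780 library was above every Acis library, and treated and control libraries overlapped within each line. SREBF1 was lower in Acis by a log2 difference of -0.33 without treatment (SE 0.06, adjusted p = 1.09e-05 by edgeR) and of -0.47 after cisplatin (SE 0.06, adjusted p = 3.48e-08 by edgeR). After cisplatin it fell in Acis by 0.20 (SE 0.06, adjusted p = 0.0164 by edgeR), a call that was lost when any of 4 libraries was left out (Acis control 1 or 2, Acis cisplatin 1 or 2, adjusted p from 0.0567 to 0.0938), and in A2780 the change was -0.06 (SE 0.05, adjusted p = 0.407 by edgeR).

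SREBF2 (ENSG00000198911, chr22:41833105-41907306, plus strand) encodes SREBP-2, the main activator of cholesterol synthesis. It had 918, 908 and 900 normalized counts in A2780 control, 892, 786 and 822 in treated A2780, 1095, 1056 and 1058 in Acis control and 977, 947 and 1065 in treated Acis libraries. All Acis libraries exceeded all A2780 libraries, and the log2 difference was 0.24 without treatment (SE 0.05, adjusted p = 5.68e-05 by edgeR) and 0.26 after cisplatin (SE 0.05, adjusted p = 1.84e-05 by edgeR). Its fall after cisplatin in A2780 was small (log2 -0.12, SE 0.05, adjusted p = 0.0277 by edgeR). That call was lost without A2780 control 1 (adjusted p = 0.0672) and without A2780 cisplatin 2 or 3 (adjusted p = 0.162 and 0.0787), and with DESeq2 (adjusted p = 0.0921). In Acis the change of -0.10 (SE 0.04) did not pass the test (adjusted p = 0.101 by edgeR), but it did without Acis cisplatin 3 (log2 -0.15, adjusted p = 0.0137).

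INSIG1 rose after cisplatin in both lines, by 1.30-fold in A2780 and 1.34-fold in Acis. INSIG1 (ENSG00000186480, chr7:155297776-155310235, plus strand) had 198, 229 and 205 normalized counts in A2780 control, 261, 279 and 285 in treated A2780, 234, 265 and 255 in Acis control and 339, 344 and 330 in treated Acis libraries. Treated libraries were above the controls of the same line in every case, while A2780 cisplatin and Acis control overlapped. The log2 change was 0.38 in A2780 (SE 0.07, adjusted p = 4.75e-05 by edgeR) and 0.43 in Acis (SE 0.07, adjusted p = 1.73e-05 by edgeR). The difference of these changes was 0.04, with a 95% interval of -0.15 to 0.23 (adjusted p = 0.836 by edgeR). Acis was higher by 0.25 without treatment (SE 0.07, adjusted p = 0.00382 by edgeR, 0.0503 without A2780 control 1) and by 0.30 after cisplatin (SE 0.06, adjusted p = 1.43e-04 by edgeR).

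The enzymes behaved differently from INSIG1. SQLE (ENSG00000104549, chr8:124998497-125022283, plus strand), which makes squalene epoxide in the first oxygen-dependent step of sterol synthesis, had 494, 500 and 522 normalized counts in A2780 control, 520, 543 and 491 in treated A2780, 841, 831 and 784 in Acis control and 796, 836 and 850 in treated Acis libraries. The lines did not overlap, and treated and control libraries of each line did. SQLE was 1.62-fold higher in Acis without treatment (log2 0.70, SE 0.05, adjusted p = 5.19e-13 by edgeR) and 1.60-fold higher after cisplatin (log2 0.67, SE 0.05, adjusted p = 5.60e-13 by edgeR). The change with cisplatin was 0.04 in A2780 (95% interval -0.06 to 0.14, adjusted p = 0.568 by edgeR) and 0.01 in Acis (95% interval -0.07 to 0.10, adjusted p = 0.884 by edgeR). The neighbouring gene WASHC5, which lies within 5 kb of SQLE on the other strand, was also higher in Acis, by 0.53 without treatment (adjusted p = 1.74e-11 by edgeR) and by 0.60 after cisplatin (adjusted p = 1.13e-12 by edgeR).

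HMGCS1 (ENSG00000112972, chr5:43287470-43313512, minus strand), the cytosolic synthase that forms HMG-CoA at the entry of the mevalonate pathway, had the narrowest range of group means among the 8 genes, 442 to 495 normalized counts. Its libraries held 494, 488 and 461 normalized counts in A2780 control, 438, 449 and 438 in treated A2780, 466, 478 and 463 in Acis control and 489, 482 and 514 in treated Acis libraries. The treated libraries of A2780 lay below all others. The log2 change was -0.13 in A2780 (SE 0.05, adjusted p = 0.0424 by edgeR) and 0.08 in Acis (95% interval -0.02 to 0.17, adjusted p = 0.349 by edgeR), and the difference between these was 0.20 (SE 0.07, adjusted p = 0.0459 by edgeR). The fall in A2780 was lost when A2780 control 1 or 2 or A2780 cisplatin 1 or 3 was left out (adjusted p from 0.0861 to 0.134) and with DESeq2 (adjusted p = 0.182), and the difference between the lines when any of 9 libraries was left out (adjusted p from 0.0503 to 0.112) or with DESeq2 (adjusted p = 0.243). HMGCS1 was higher in Acis than in A2780 after cisplatin (log2 0.16, SE 0.05, adjusted p = 0.00445 by edgeR, 0.0860 by DESeq2) and differed by -0.04 without treatment (95% interval -0.13 to 0.06, adjusted p = 0.574 by edgeR).

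Counted over the 8 genes, 3 were higher and 3 lower after cisplatin in A2780, beside 21.2% and 28.2% of all genes tested, and 2 were higher and 1 lower in Acis, beside 9.35% and 12.4%. Between the lines, 5 were higher and 2 lower in Acis without treatment, beside 28.2% and 30.6% of all genes, and again 5 and 2 after cisplatin, beside 31.8% and 31.2%. For the difference of the responses, 1 was higher in Acis (HMGCS1) and 2 lower (MYLIP and NR1H2), beside 13.4% and 5.48%. When a log2 change of at least 1 was also required, MYLIP alone was higher in A2780 after cisplatin and none was lower, beside 4.14% and 1.48% of all genes, and no member passed in Acis, beside 1.64% and 0.374%. Between the lines MYLIP was higher and ABCA1 lower in both states, beside 6.99% and 12.2% of all genes without treatment and 7.28% and 11.9% after cisplatin. The members were chosen with earlier results of these data known, so these counts are a description.

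**Figure D2:**
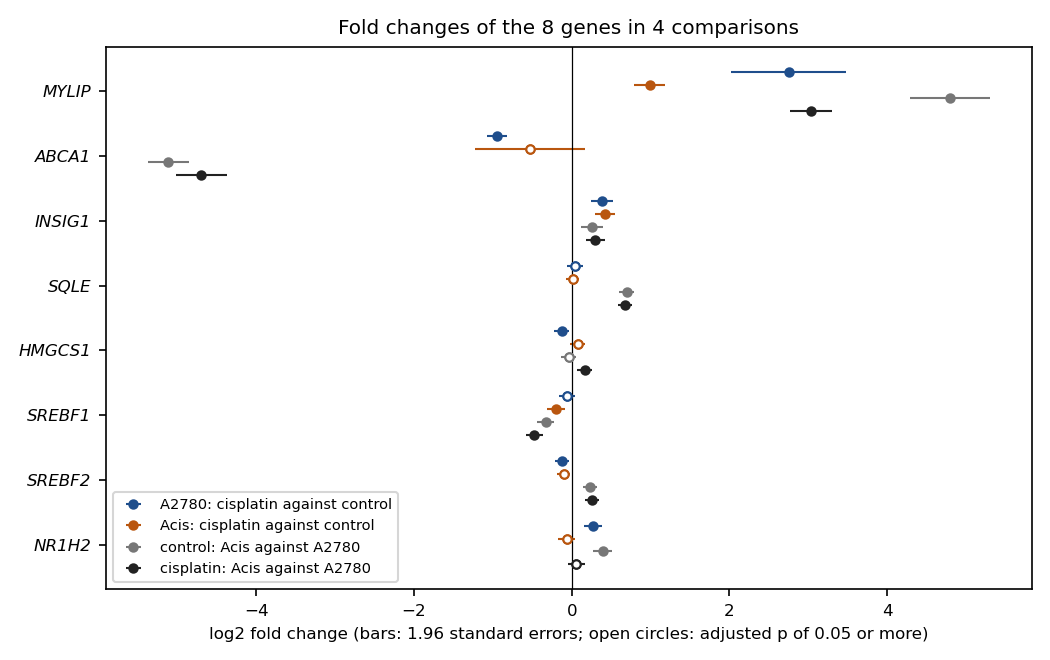
Log2 fold changes (x axis) of the 8 genes (y axis) in 4 comparisons, where points are edgeR estimates, bars are 95% intervals and open circles mark an adjusted p of 0.05 or more. Only MYLIP and ABCA1 lie beyond 1 in either direction, MYLIP to the right in the comparisons of the lines and in A2780, and ABCA1 to the left in the comparisons of the lines.

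Per kilobase of exon, the most abundant members in A2780 control cells were SQLE, at 25.7 RPKM (reads per kilobase of exon, scaled for depth), SREBF2, at 24.7 RPKM, and SREBF1, at 23.3 RPKM. HMGCS1 was at 15.9 RPKM, NR1H2 at 13.0 RPKM, INSIG1 at 12.6 RPKM, ABCA1 at 6.38 RPKM and MYLIP at 0.234 RPKM. In Acis control cells MYLIP reached 6.72 RPKM and ABCA1 0.183 RPKM, so these genes had exchanged places in the order, and after cisplatin MYLIP was at 13.4 RPKM and ABCA1 at 0.125 RPKM. These levels were computed from the exon length of all annotated isoforms and serve only to order the genes. They are not on the scale of the paper. Its RPKM threshold in untreated Acis cells, passed by MYLIP and the other genes taken to real-time PCR, lay above the MYLIP value given here. The reason for this difference was not examined.

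Other genes of sterol metabolism were taken from 7 lists with 67 names, of which 66 were in the table and 65 were tested. After cisplatin, 10 rose and 29 fell in A2780, beside 21.2% and 28.2% of all genes tested, and 6 rose and 13 fell in Acis, beside 9.35% and 12.4%, with median log2 changes of -0.07 and -0.03 beside -0.01 and 0.01 over all genes. Between the lines, 30 were higher and 18 lower in Acis without treatment, beside 28.2% and 30.6% of all genes, and 32 and 12 after cisplatin, beside 31.8% and 31.2%. The difference of the responses was higher in Acis for 16 and lower for 4, beside 13.4% and 5.48%. These splits depend on the scaling. With total counts as library size they became 20 higher and 19 lower in A2780, 12 and 10 in Acis, 31 and 18 between untreated lines, 26 and 15 between treated lines, and 10 and 8 for the difference. The counts of single lists below are to be read beside these percentages, and with few genes in a list many lie near them. Over all genes tested, the median log2 change after cisplatin in A2780 ran from 0.21 under 10 kb to -0.44 over 200 kb. The part of gene length in the list values was not tested.

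The 20 enzymes of the mevalonate and cholesterol pathways were more often higher than lower in Acis, with 13 higher and 1 lower without treatment and a median log2 difference of 0.37, beside -0.01 over all genes. After cisplatin 13 were higher and 0 lower. DHCR7, a terminal reductase of the pathway, was higher by 0.78 without treatment (adjusted p = 2.94e-13 by edgeR). SC5D, a sterol desaturase, was higher by 1.21 after cisplatin (adjusted p = 1.05e-13 by edgeR). After cisplatin 7 enzymes rose and 3 fell in A2780, with HSD17B7 (log2 0.67, adjusted p = 2.93e-04 by edgeR) and MVD, the mevalonate diphosphate decarboxylase (log2 0.64, adjusted p = 5.04e-06 by edgeR), among those that rose. In Acis 4 rose and 1 fell, SC5D among those that rose (log2 0.42, adjusted p = 4.14e-05 by edgeR). With DESeq2 these counts were 4 and 2 in A2780 and 1 and 0 in Acis, and with total counts 11 and 1, and 7 and 0.

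Of the 5 lipoprotein receptors, all 5 fell after cisplatin in A2780, with a median log2 change of -0.58, and 3 fell in Acis, with a median of -0.32. With total counts 4 and 3 fell. VLDLR and LRP8, which are known targets of the MYLIP ligase at the protein level, differed between the lines in opposite directions. VLDLR had 518, 472 and 473 normalized counts in A2780 control, 326, 343 and 308 in treated A2780, 117, 128 and 119 in Acis control and 96.9, 110 and 94.3 in treated Acis libraries. It fell in A2780 by 0.58 (adjusted p = 1.50e-09 by edgeR) and was lower in Acis without treatment (log2 -2.01, adjusted p = 3.17e-19 by edgeR). LRP8 had 513, 517 and 509 normalized counts in A2780 control, 330, 324 and 324 in treated A2780, 788, 759 and 790 in Acis control and 578, 609 and 571 in treated Acis libraries. LRP8 fell after cisplatin in both lines, by 0.65 in A2780 (adjusted p = 3.55e-11 by edgeR) and by 0.41 in Acis (adjusted p = 2.80e-08 by edgeR), and it was higher in Acis without treatment (log2 0.60, adjusted p = 1.39e-12 by edgeR). LRP1, a large endocytic receptor, was lower in Acis without treatment (log2 -1.37, adjusted p = 7.86e-18 by edgeR). These 3 genes are 30 to 100 kb long, a class of 4385 genes with a median log2 change of -0.15 after cisplatin in A2780, and the part of gene length in their falls was not tested. RNA levels do not measure degradation of the receptor proteins.

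Among 9 genes of SREBP processing, 0 rose and 5 fell after cisplatin in A2780, and 2 rose and 0 fell in Acis. With total counts 2 rose and 3 fell in A2780, and with DESeq2 0 rose and 3 fell there and 1 rose in Acis. INSIG2, the paralog of INSIG1, had 286, 301 and 292 normalized counts in A2780 control, 202, 214 and 204 in treated A2780, 28.7, 41.5 and 27.4 in Acis control and 47.0, 51.2 and 34.4 in treated Acis libraries. It fell in A2780 (log2 -0.51, adjusted p = 1.31e-06 by edgeR), where INSIG1 rose, and was lower in Acis without treatment (log2 -3.16, adjusted p = 4.19e-19 by edgeR), where INSIG1 was higher. MBTPS2, the protease that makes the second cut in SREBPs, fell in A2780 by 0.47 (adjusted p = 1.34e-07 by edgeR). RNF139, a ubiquitin ligase of the endoplasmic reticulum, rose in Acis by 0.32 (adjusted p = 0.00159 by edgeR).

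Among 6 LXR receptors and partners, 1 rose and 4 fell after cisplatin in A2780, and 0 rose and 4 fell in Acis. RXRA, an RXR partner of LXR, fell by 0.69 in A2780 (adjusted p = 4.32e-10 by edgeR) and by 0.67 in Acis (adjusted p = 2.20e-08 by edgeR). RXRB, another RXR, rose in A2780 by 0.34 (adjusted p = 7.00e-05 by edgeR), and its log2 change in Acis was 0.01 (adjusted p = 0.946 by edgeR). NR1H3, which encodes LXR-alpha, had 93.3, 79.8 and 76.9 normalized counts in A2780 control and 32.9, 25.6 and 42.2 in Acis control libraries, a log2 difference of -1.32 (adjusted p = 1.66e-08 by edgeR). Of 7 other LXR target genes tested, 0 rose and 4 fell after cisplatin in A2780, and 0 rose and 1 fell in Acis. With total counts 1 rose and 1 fell in A2780. Between the untreated lines 2 were higher and 3 lower in Acis. SMPDL3A was higher (log2 2.73, adjusted p = 3.32e-04 by edgeR), like MYLIP, though from few counts (1.57 ± 1.43 and 11.7 ± 3.81 normalized counts in A2780 and Acis control, SD, n = 3).

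Of 10 further SREBP targets, 2 rose and 4 fell after cisplatin in A2780 and 0 rose and 4 fell in Acis, and with total counts 2 rose and 2 fell in each line. ACACA, the first enzyme of fatty acid synthesis, fell in both (log2 -0.40 in each, adjusted p = 6.51e-10 and 8.24e-09 by edgeR). Between the untreated lines 5 were higher and 2 lower in Acis, with STARD4, a sterol carrier, higher by 1.06 (adjusted p = 2.78e-15 by edgeR) and FADS2, a fatty acid desaturase, lower (log2 -2.82, adjusted p = 8.29e-25 by edgeR). Of 8 genes of sterol transport and esterification, 0 rose and 4 fell in A2780, and with total counts 2 rose and 4 fell. OSBPL8, which moves lipids between membranes, fell by 0.46 (adjusted p = 7.61e-08 by edgeR). In Acis 0 of the 8 passed by edgeR or by DESeq2, and 1 had an unadjusted p under 0.05 by edgeR. ACACA and OSBPL8 belong to the 1016 tested genes over 200 kb long. After cisplatin that class had a median log2 change of -0.44 in A2780 and -0.22 in Acis. The part of gene length in the falls of ACACA and OSBPL8 was not tested.

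**Figure D3:**
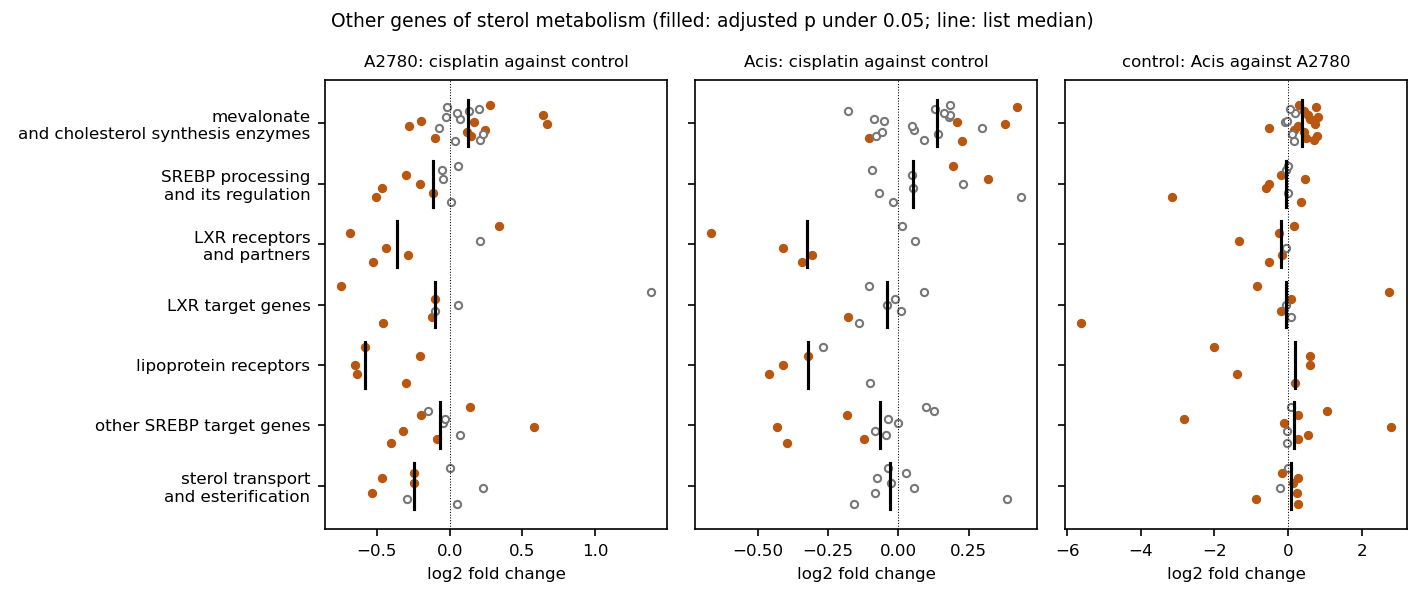
Log2 fold changes (x axis, with its own scale in each panel) of the genes of 7 sterol lists (y axis) in 3 comparisons, where filled points are genes with an adjusted p under 0.05, open points are the others and vertical lines are list medians. All 5 lipoprotein receptors lie left of 0 in A2780 after cisplatin, and 13 of the 20 synthesis enzymes are filled points to the right of 0 between the untreated lines.

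Transcripts beside SREBF2 and INSIG1 had larger log2 changes in A2780 than the genes themselves. The libraries are stranded, so antisense reads were counted apart. SREBF2-AS1 (ENSG00000184068, chr22:41831215-41834665, minus strand) spans the start of SREBF2 on the other strand and had 9.33, 11.5 and 4.27 normalized counts in A2780 control, 31.9, 24.2 and 20.6 in treated A2780, 7.43, 3.19 and 6.84 in Acis control and 6.72, 7.88 and 9.82 in treated Acis libraries. It rose in A2780 by 1.58 (SE 0.33, adjusted p = 6.56e-05 by edgeR) without overlap, whereas in Acis the change was 0.48 (adjusted p = 0.513 by edgeR). The difference of these changes did not pass the test (log2 -1.10, adjusted p = 0.184 by edgeR). INSIG1-DT (ENSG00000273117, chr7:155295918-155297541, minus strand), transcribed away from INSIG1, had 12.1, 9.62 and 7.47 normalized counts in A2780 control, 28.1, 22.3 and 21.6 in treated A2780, 8.49, 9.58 and 6.84 in Acis control and 18.2, 8.86 and 10.8 in treated Acis libraries. It rose in A2780 by 1.28 (adjusted p = 3.43e-04 by edgeR), and the change in Acis was 0.60 (adjusted p = 0.265 by edgeR). RAI1, whose 3′ end overlaps that of SREBF1 on the other strand, fell by 0.56 in A2780 (adjusted p = 8.01e-10 by edgeR) and by 0.65 in Acis (adjusted p = 8.93e-10 by edgeR).

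Accessible chromatin was compared at the starts of the 8 genes, where a peak counted if it overlapped the 1 kb on either side. The deposited lists give 1 set of peaks per condition, made from 3 replicates for the controls and 2 for cisplatin, with 34979, 32159, 24485 and 27321 peaks in A2780 control, A2780 cisplatin, Acis control and Acis cisplatin cells, and median fold enrichments over local background of 9.96, 8.79, 12.8 and 11.0. With 1 list per condition no difference could be set against replicate spread, and the lists hold no read numbers. Of the 8 genes, 8 had a start peak in each A2780 list and 7 in each Acis list, ABCA1 being the gene without.

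At MYLIP all 4 lists held a peak over the promoter printed above, with its summit 49 to 58 bases before the start. The peak had a fold enrichment of 16.5 in control and 10.3 in treated A2780 cells, and of 17.2 in control and 16.6 in treated Acis cells. The untreated lines, with values of 16.5 and 17.2, had 10 and 261 MYLIP counts over their 3 libraries. Within its list the peak stood at percentile 81.3 in A2780 control and 71.5 in Acis control cells, so the values are not on a common scale. Other measures of this MYLIP peak differed more between the untreated lines. It was 363 bases wide with a -log10 q of 87.5 in A2780 control and 806 bases wide with 179 in Acis control cells. After cisplatin it was 740 bases wide with 32.3 in A2780 and 525 bases wide with 98.8 in Acis. At ABCA1 the A2780 control list held a peak at chr9:104926380-104928359 with a fold enrichment of 7.11, and the A2780 cisplatin list a peak at chr9:104926522-104928359 with 6.04. Both cover the start and extend into the gene. The Acis control list held none within 10 kb of the gene, and the Acis cisplatin list held 1 of 6.31 with its summit 1473 bases into the gene, near the summit in A2780 control at 1475 bases. All of these were below the median of their lists, and no ABCA1 peak was among the 20000 with the highest -log10 q in any list.

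INSIG1 had a peak about 1.2 kb into the gene in all lists, with fold enrichments of 13.7, 13.0, 15.2 and 13.2 in A2780 control, A2780 cisplatin, Acis control and Acis cisplatin cells. The lists of both cisplatin conditions held an additional weak peak before the start, at chr7:155296970-155297401 in A2780 (4.13) and at chr7:155297076-155297892 in Acis (4.47), which covers sequence of INSIG1-DT in both and, in Acis, the printed promoter. These weak peaks stood at percentiles 6.13 and 5.64 of their lists. A listed peak had to be found in 2 replicates after cisplatin but in 3 for the controls. The part of this rule in the pattern was not tested. SREBF2 had the highest values of the 8 genes, 24.2, 19.0, 27.0 and 27.4 in the same order, in peaks that cover the match to TCACNCCAC. HMGCS1 followed with 21.8, 16.9, 22.7 and 22.0, and NR1H2 had 16.0, 14.0, 17.9 and 16.0. SREBF1 had a peak with its summit 629 to 664 bases into the gene with 13.8, 12.5, 17.3 and 17.5, and a weak one before the start of 3.93, 3.98 and 3.85 in the first 3 of these lists. SQLE, whose RNA differed 1.62-fold between the untreated lines, had 8.80 in A2780 control and 8.84 in Acis control cells, and 6.88 and 7.87 after cisplatin. Within their lists the SQLE peaks of A2780 control and Acis control cells stood at percentiles 42.4 and 28.1. At all 7 genes with a start peak in every list, the strongest such peak had a lower value in A2780 cisplatin than in A2780 control cells, and the median of the whole list was lower too.

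**Figure D4:**
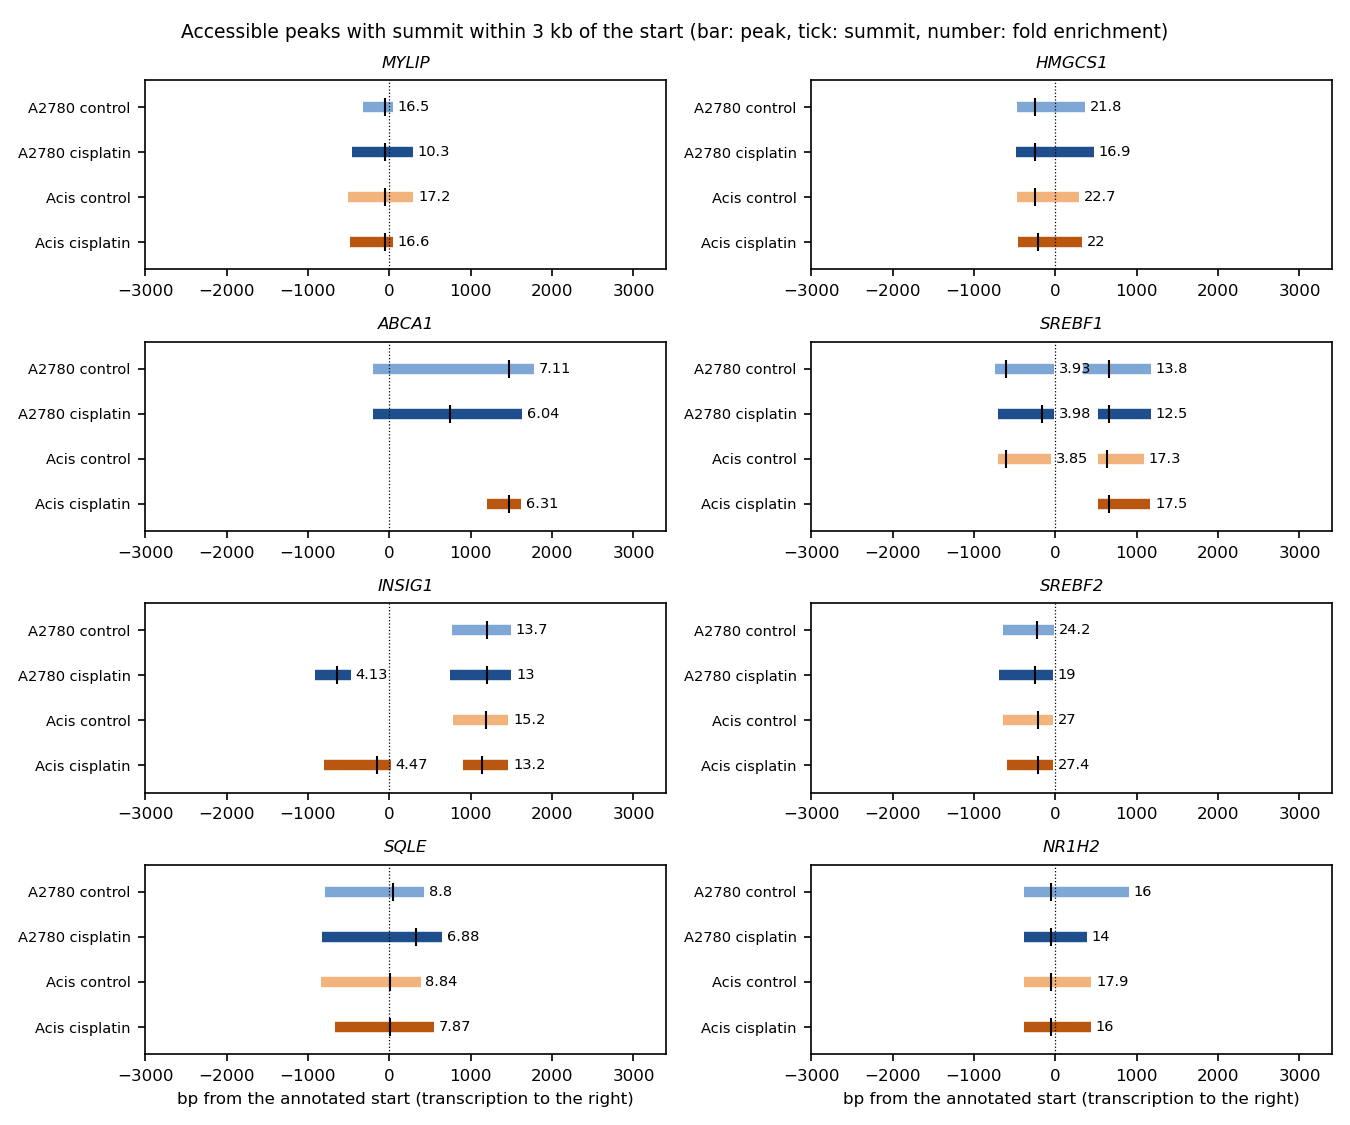
Accessible peaks around the start of each gene, with the distance from the start in bp on the x axis and the 4 conditions on the y axis, where bars are peaks, ticks are summits and numbers are fold enrichments. MYLIP has a peak at its start in all 4 lists, and ABCA1 has none in Acis control cells. INSIG1 has a weak peak before its start only in the lists of the cisplatin conditions. Those lists required a peak in 2 replicates, and the control lists in 3.

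The genes whose log2 levels followed those of MYLIP, ABCA1 and INSIG1 most closely over the 12 libraries were found among 10889 genes with a mean of at least 50 normalized counts. These correlations rest on 4 groups and describe the pattern of group means, and since the levels chose these genes their values are given with no test. For MYLIP the nearest were TUBB2A (Pearson r = 0.992), MAFA (0.989) and PHLDA2 (0.988). PHLDA2 had 38.3 ± 4.35, 74.1 ± 7.53, 112 ± 6.47 and 162 ± 4.28 normalized counts (SD, n = 3) in untreated and treated A2780 and in untreated and treated Acis cells, the same order of groups as MYLIP over a smaller range. For ABCA1 they were PBX3 (0.998), TES (0.998) and UACA (0.997), which were lower in Acis without treatment by log2 differences of -1.22, -0.93 and -3.07. For INSIG1 they were TNFRSF10D (0.980), SRP19 (0.963) and NEAT1 (0.960), the last with log2 changes after cisplatin of 0.58 in A2780 and 0.48 in Acis.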

How the data were processed

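RNA-seq and ATAC-seq files were used, and excision repair was not analysed here. Per the methods of the authors, the deposited counts are raw reads per gene from ribosomal RNA-depleted, stranded libraries, made with STAR, duplicate removal and htseq-count. Removing duplicates can lower the spread between libraries. Peaks were called by the authors with MACS2 after Bowtie2 alignment to hg38, and the deposited lists give a fold enrichment (a ratio to local background), -log10 p and -log10 q values and an integer score. Only peaks found in all replicates were kept by the authors.

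Counts were analysed with edgeR 4.0.16 in R 4.3.3 by TMM normalization, the default filter on low counts (15760 of 23622 genes kept), 1 mean per group fitted to all 12 libraries (8 residual degrees of freedom), and the quasi-likelihood test. Intervals are approximate 95% intervals from the standard errors. The fits were tested on simulated data. DESeq2 1.42.0, other scalings and filters, libraries left out, the closest replicates summed and a replicate block were alternatives. Gene positions and exon lengths came from GENCODE 44, and Python 3.11.15 (pandas 2.3.3, numpy 2.4.6, matplotlib 3.10.9) served for tables and plots.

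Members and lists were chosen with earlier results of these data known. By rule, the text names the members, up to 3 genes per list and comparison with the smallest adjusted p, the 3 genes most correlated with MYLIP, ABCA1 and INSIG1, and neighbouring genes. WASHC5 was named after its values were seen. Some list genes are counted but not reported here by name.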

Additional observations from a re-analysis of the deposited data

Results flagged for a closer look

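The response to cisplatin differed between Acis and A2780, by edgeR's interaction test with an adjusted p under 0.05, for 3 of the 8 genes, 1 higher and 2 lower in Acis, beside 13.4% and 5.48% of all genes tested. The difference (Acis minus A2780, log2) was -1.76 for MYLIP, -0.33 for NR1H2 and 0.20 for HMGCS1 (adjusted p = 0.00293, 0.00514 and 0.0459). The call for HMGCS1 was lost with DESeq2 (adjusted p = 0.243), with total counts (adjusted p = 0.197) and when any of 9 of the 12 libraries was left out.

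Among the genes named from the sterol lists, the difference was -0.46 for MVD and 0.44 for SC5D among the synthesis enzymes, 0.52 for MBTPS2, 0.94 for INSIG2 and 0.35 for RNF145 in SREBP processing, -0.33 for RXRB among the LXR partners, 0.65 for TTC39B among LXR targets and 0.24 for LRP8 among the receptors. It was -1.01 for FABP5, 0.28 for STARD4 and 0.24 for ELOVL6 among other SREBP targets and 0.39 for OSBPL8 and 0.27 for SOAT1 in sterol transport and esterification. Adjusted p ranged from 1.11e-04 for MBTPS2 to 0.0253 for ELOVL6 by edgeR. DESeq2 called 0 LXR partners and 0 receptors, so the calls for RXRB and LRP8 were lost. It called 0 enzymes as lower and 0 other SREBP targets as higher, so those for MVD, STARD4 and ELOVL6 were lost too. With total counts the calls for LRP8, STARD4 and ELOVL6 were also lost. FABP5 rose in A2780 (log2 0.58) and fell in Acis (log2 -0.43). Over all genes tested the median difference varied with gene length. It was -0.13 under 10 kb, 0.13 for 30 to 100 kb, 0.20 for 100 to 200 kb and 0.18 over 200 kb. The part of gene length in the differences named above was not tested.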

How the results depend on the processing

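Counts and values were recomputed with DESeq2, size factors, total counts as library size, no filter, at least 50 counts on average, the compared groups alone, a replicate block, the closest replicates summed and each library left out. MYLIP and ABCA1 kept direction and call in every value computed. With the compared groups alone the difference of responses was not fitted and ABCA1 in Acis did not pass the filter, so 9 member values were not given. Over the 8 genes, 733 of 791 recomputed values kept direction and side of the threshold, 39 lost the call, 3 gained it and 16 changed sign, none of the last in a called value. The cause was not tested. The count of list genes whose response differed between the lines was 9 with DESeq2, against 20 with edgeR. Leaving out single libraries gave 4 to 6 called members in A2780, 2 to 4 in Acis, 6 to 7 between untreated lines, 7 in each case between treated lines and 2 to 3 for the difference, and 32 to 39, 13 to 24, 44 to 49, 35 to 45 and 15 to 21 list genes.

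Values near 0 that changed sign were, for SREBF1 after cisplatin in A2780, 0.062 with total counts and 0.00422 with the 50-count filter. For SQLE after cisplatin in Acis they were -0.00314 with DESeq2, -0.00375 with size factors and -0.0180 to 0.0402 with a library left out. For the difference of responses, INSIG1 had -0.020 with total counts, -0.00620 with the 50-count filter and -0.0198 to 0.0912 with a library left out, SREBF2 had -0.042, -0.028 and -0.0264 to 0.0752, and SQLE had -0.0588 to 0.0116 with a library left out. With total counts the falls of HMGCS1 and SREBF2 in A2780 (log2 -0.00820 and -0.00715, adjusted p = 0.907 and 0.908) were no longer called, nor were that of SREBF1 in Acis (adjusted p = 0.0795), the higher HMGCS1 in treated Acis (0.0661) and its difference of responses (0.197), and SQLE was called in A2780 (log2 0.15, adjusted p = 0.0109).

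Equal replicate numbers did not mark paired samples, since correlations of deviations between libraries of the same number were -0.068 to 0.113 and those of other numbers -0.079 to 0.090. With the replicate block, 6, 3, 7, 7 and 3 members were called, the same counts as without it, and 40, 20, 49, 44 and 21 list genes. With few counts, as for MYLIP in A2780 control and ABCA1 in Acis, depth limits the precision. Restricting lists to 20000 peaks left 7 genes with a start peak in each list, and requiring 50% of a peak inside the window left 7, 8, 6 and 7.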
